A study of Mus musculus with 9 samples.

Results

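Genes that mark the myeloid lineage were followed through the peak lists of an H3R2me2a ChIP-seq experiment in mouse cells: Csf1r, Cd14, Itgam, Mpo, Elane and Cebpe. They are 6 of the 21627 protein-coding genes on chromosomes 1 to 19 and X, and were chosen by name. Peak totals cover the same chromosomes only, and the full WT files hold 165304 and 134492 peaks. A peak was assigned to a gene when it touched the gene or the 20 kb on either side of it, in build mm10. By this rule the windows held 24 of the 162454 peaks of WT replicate 1 and 12 of the 133960 of WT replicate 2. They held 100 of the 812414 peaks of Prmt6KO replicate 1, 33 of the 430225 of replicate 2, and none of the 961 and 1221 peaks of Igf2bp2KO.

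The 3 genotypes were wild type (WT), Prmt6KO and Igf2bp2KO, with 2 H3R2me2a libraries each. All cells are labelled as mouse bone marrow, are called leukemia cells in the design text, and grew with interleukin 3, interleukin 6 and stem cell factor. Chromatin was crosslinked with formaldehyde before sonication, and the libraries went through 20 PCR cycles. The 3 input libraries were not analysed here. The sources used here do not give how the deletions were made or the age of the mice. They also do not say if replicates are independent cultures, so every spread and p-value below measures variation among libraries, which may be technical. Peak lists hold no RNA, so neither the labelled cell type nor the deletions could be checked against expression.

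H3R2me2a is the asymmetric dimethylation of arginine 2 of histone H3. PRMT6 is its main writer, and the mark is known to oppose methylation of the neighbouring lysine 4, a mark of active promoters. IGF2BP2 is an RNA-binding protein that reads m6A in transcripts. The genes followed here are landmarks of the path from myeloid progenitor to granulocyte and macrophage. CSF1R is the receptor of macrophage colony stimulating factor. CD14 presents bacterial lipopolysaccharide to Toll-like receptor 4, and ITGAM is the CD11b chain of a leukocyte integrin. MPO, a peroxidase, and ELANE, an elastase, are stored in the primary granules of neutrophil precursors, and CEBPE is a transcription factor of late granulocyte maturation.

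The regulatory sequence at the gene starts is shown first, because peaks came close to it at Mpo and Itgam but not at Elane. Promoters of 3 of the 6 genes were matched in RefSeq (GRCm38.p6, the build mm10). The 250 bases before each start are given 5′ to 3′ on the plus strand, with exact matches to the PU.1 motif GAGGAAGT, searched on both strands, in capitals.
Mpo, chr11:87793534-87793783: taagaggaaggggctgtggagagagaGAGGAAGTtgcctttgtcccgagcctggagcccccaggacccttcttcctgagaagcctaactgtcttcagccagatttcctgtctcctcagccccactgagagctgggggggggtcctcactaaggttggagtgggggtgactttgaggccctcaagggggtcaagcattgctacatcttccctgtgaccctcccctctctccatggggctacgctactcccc
Elane, chr10:79886062-79886311: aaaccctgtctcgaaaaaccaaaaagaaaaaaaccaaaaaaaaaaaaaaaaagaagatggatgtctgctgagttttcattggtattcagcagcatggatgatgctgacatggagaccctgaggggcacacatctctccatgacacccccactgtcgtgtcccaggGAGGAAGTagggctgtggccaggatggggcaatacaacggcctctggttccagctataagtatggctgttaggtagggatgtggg
Itgam, chr7:128062390-128062639: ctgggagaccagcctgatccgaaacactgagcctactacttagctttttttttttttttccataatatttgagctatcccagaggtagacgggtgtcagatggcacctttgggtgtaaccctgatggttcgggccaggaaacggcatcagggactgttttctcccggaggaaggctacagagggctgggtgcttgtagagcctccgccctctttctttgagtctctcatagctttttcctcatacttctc

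PU.1 is an ETS-family regulator of myeloid genes. The Mpo and Elane stretches each held 1 match to its motif, and Itgam held none. Of 27025 promoters of the same length, 2.44% held such a match. The shorter ETS core GGAA, which lies inside that motif, was found 5 times at Mpo, 2 times at Elane and 4 times at Itgam, and 93.4% of promoters held it. Matches to the RUNX motif TGTGGT and the C/EBP motif TTGCNNAA, on either strand, were absent from all 3 stretches, and 14.2% and 9.55% of promoters held them. GC content was 59.2% at Mpo, 47.6% at Elane and 49.6% at Itgam, against a median of 52.0%. These matches describe the letters and are not evidence of binding.

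Across the 6 lists, a single peak overlapped any of these 3 stretches. It lay at chr11:87793219-87793631 in Prmt6KO replicate 1, covered 98 bases of the Mpo promoter stretch, and reached a summit of 3 fragments. At Itgam the nearest peaks were 0.269 kb away in WT replicate 1 and 0.377 kb away in Prmt6KO replicate 1. At Elane the nearest was 2.53 kb away, in Prmt6KO replicate 1. The Mpo promoter peak had no overlapping peak in any other library. Promoters of Csf1r, Cd14 and Cebpe were not matched, so overlap with them was not assessed. By coordinate, Prmt6KO replicate 1 peaks lay 0.149 kb below the lower end of Csf1r, 0.051 kb below that of Cd14 and 0.795 kb below that of Cebpe. Strand was not used for these distances, so the lower end of a gene need not be its start.

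**Figure D1:**
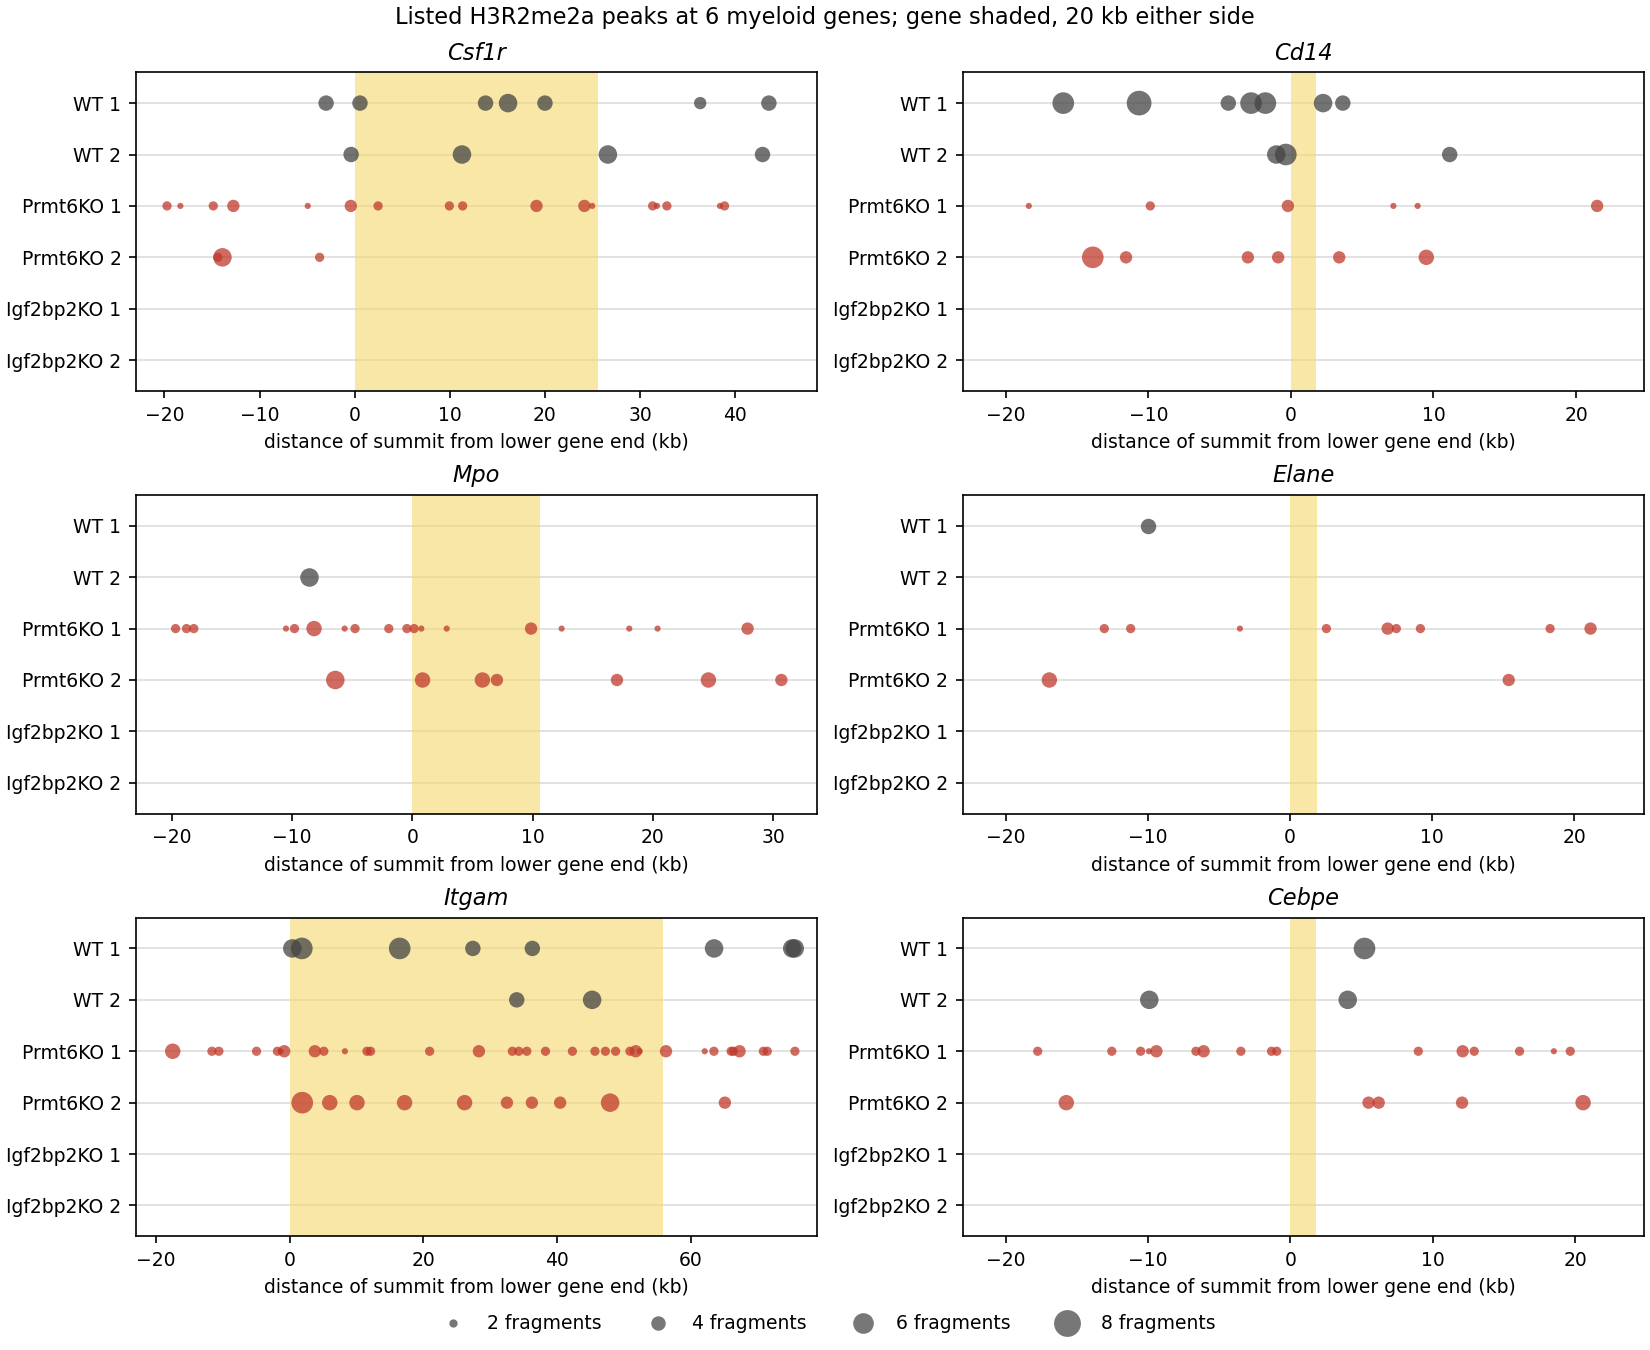
Listed peaks at each gene by library, with the distance of the summit from the lower gene end in kb on the x axis, 1 row per library, and the point area growing with the square of the summit height in fragments; the gene is shaded. No row of Igf2bp2KO holds a peak, Cd14, Elane and Cebpe have no peak inside the gene in any list, and the WT rows of Mpo and Elane are almost empty.

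Heights here are the fragments stacked at a summit. The background that the peak caller used was recovered from fold enrichment and height as the median of each list, and it was constant within a list. It was 1.46 and 1.44 fragments in the WT lists and 0.736 and 1.21 in those of Prmt6KO. The sources used here do not state the control or the cutoff of the peak caller. The Igf2bp2KO lists had backgrounds of 1.45 and 1.34 fragments. The lowest summit in a list also differed between genotypes, at 4 fragments in both WT lists, 2 and 3 fragments for Prmt6KO, and 8 and 7 fragments for Igf2bp2KO. The WT libraries also differed on chromosome X, where the density relative to the autosomes was 0.181 in replicate 1 and 1.20 in replicate 2. All 6 genes are autosomal. Because a longer list has more peaks anywhere, counts were divided by the count that the list's mean density gives for a window of that length, called the ratio to mean density. A second ratio used the density in the 1 Mb on either side of the window. Log2 differences are between genotype means of log2 values, so they are not the log2 ratio of the plain means given with SD.

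No peak at these genes was strong. Not 1 of the 169 peaks in the 6 windows had a q of 0.05 or below, and the lowest q was 0.0894. In the whole lists, 3.05% and 2.03% of WT peaks and 0.497% and 1.34% of Prmt6KO peaks passed that threshold. Of all protein-coding genes, 12.9% had such a peak in their window in at least 1 WT library and 16.8% in at least 1 Prmt6KO library. The median summit at the 6 genes was 6 fragments in both WT libraries, 3 in Prmt6KO replicate 1 and 4 in replicate 2. Each of these medians equalled that of the whole list it came from.

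**Figure D2:**
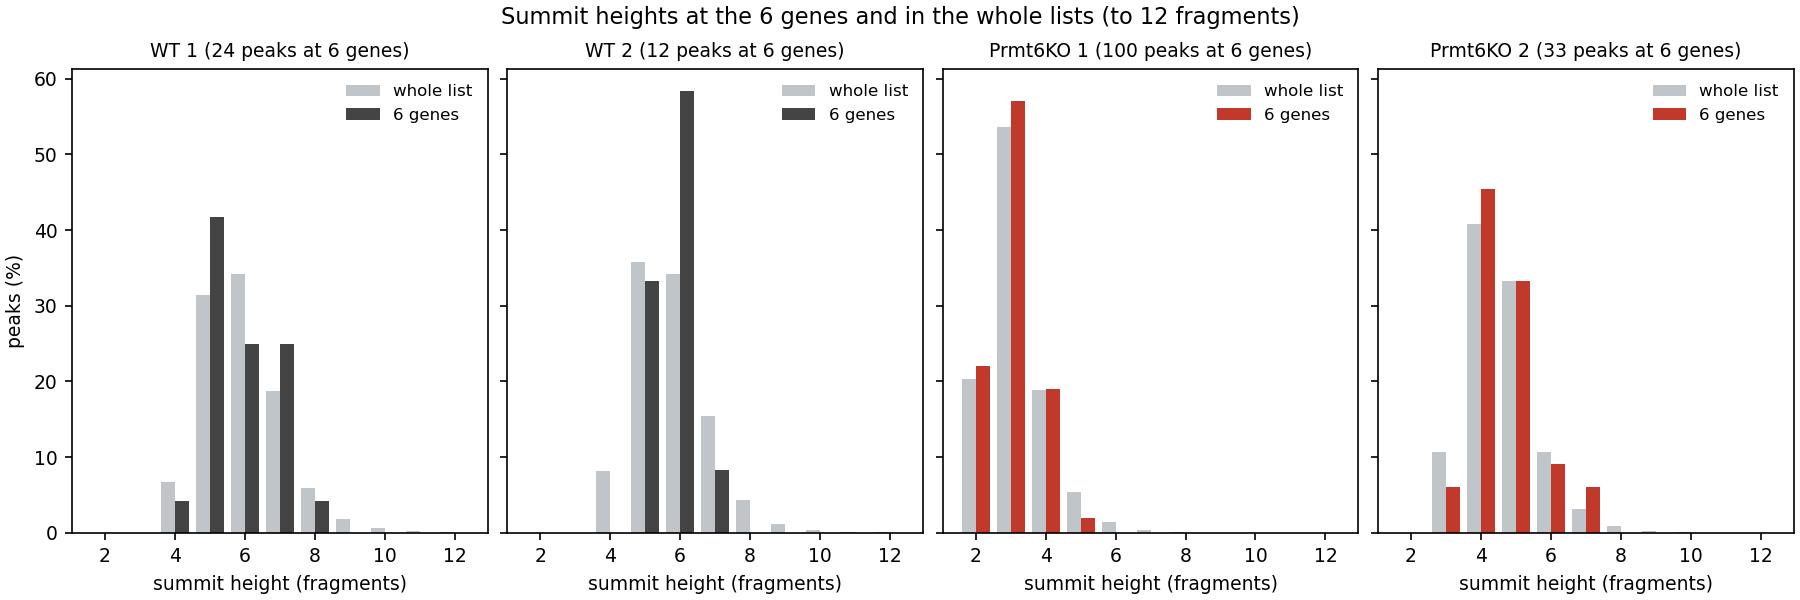
Share of peaks in percent at each summit height in fragments, for the whole list (grey) and for the peaks at the 6 genes (coloured), in the WT and Prmt6KO libraries. The most frequent heights at the 6 genes, 5 or 6 fragments in WT and 3 or 4 in Prmt6KO, lie among the most frequent of the whole lists.

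Surface receptors came first. At Csf1r (chromosome 18, 61105572 to 61131139, 25.6 kb), the lists held 7 and 4 peaks in WT and 17 and 3 in Prmt6KO, while Igf2bp2KO had 0 and 0. The ratio to mean density was 1.69 and 1.17 in WT and 0.821 and 0.273 in Prmt6KO. Both WT libraries thus lay above their list's mean and both Prmt6KO libraries below theirs, and the groups did not overlap. Of all protein-coding genes, 14.3% had both Prmt6KO ratios below both WT ratios. The share of genes with a lower ratio than Csf1r was 88.2% and 74.9% in WT and 23.4% and 10.7% in Prmt6KO. Set against the surrounding megabases, the ratios were 2.01 and 1.94 in WT and 0.896 and 0.396 in Prmt6KO. The mean ratio to mean density was 1.43 ± 0.367 in WT and 0.547 ± 0.387 in Prmt6KO (SD, n = 2). The difference between the means of the log2 ratios was -1.57, with an exact permutation p of 0.333. This two-sided test has 6 splits and cannot give less.

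Within Csf1r itself, WT replicate 1 had 4 peaks, WT replicate 2 had 1, Prmt6KO replicate 1 had 6 and Prmt6KO replicate 2 had 0. The WT peaks lay apart from each other. The closest pair from the 2 WT libraries was 334 bp apart, at 61148913 to 61149112 and 61148380 to 61148579, beyond the far end of the gene and within Hmgxb3. At the lower end of Csf1r, a WT replicate 2 peak of 5 fragments (61105048 to 61105280) lay entirely inside a Prmt6KO replicate 1 peak of 4 fragments (61104887 to 61105423), 0.292 kb from the gene. A second pair, of 6 and 3 fragments, shared 140 bp inside the gene. Neither position had a peak in WT replicate 1.

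Cd14 (chromosome 18, 36725064 to 36726815) is only 1.75 kb long, and no list placed a peak inside it. Mean density gives 0.554 and 0.293 peaks for a stretch of that length in Prmt6KO, and 0.111 and 0.0913 in WT, so an empty gene says little. Its window held 7 and 3 peaks in WT and 6 and 6 in Prmt6KO, while Igf2bp2KO had 0 and 0. The ratio to mean density was 2.65 and 1.38 in WT and 0.455 and 0.859 in Prmt6KO. The groups did not overlap, with Prmt6KO below WT as at 14.3% of all genes. In WT replicate 1, 97.7% of protein-coding genes had a lower ratio than Cd14, and in replicate 2 81.1% did. In Prmt6KO replicate 1 the share was 2.78% and in replicate 2 57.7%. On the log2 scale Prmt6KO was lower by a difference of -1.61, with an exact permutation p of 0.333, the lowest the design allows. The difference shrank to -0.16 with windows of 50 kb on either side (exact permutation p = 1.00).

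The highest summit at any of the 6 genes stood near Cd14. It had 8 fragments in WT replicate 1 at 36714289 to 36714522, in the noncoding gene Gm41699, with a fold enrichment of 3.66 and the q of 0.0894. In that list 8.94% of peaks were as high or higher. Peaks of all 4 WT and Prmt6KO libraries lay within 3 kb below the gene, and no position there was shared by more than 2 of them. WT replicate 2 peaks of 7 and 6 fragments overlapped a Prmt6KO replicate 1 peak by 41 bp and a Prmt6KO replicate 2 peak by 26 bp, and a WT replicate 1 peak of 7 fragments overlapped another Prmt6KO replicate 2 peak by 17 bp. The nearest peaks of the 2 WT libraries were 184 bp apart.

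Itgam (chromosome 7, 128062640 to 128118491) is the longest of the genes at 55.9 kb, and its window reaches into Itgax, a neighbouring integrin gene. The lists held 8 and 2 peaks in WT and 34 and 10 in Prmt6KO, while Igf2bp2KO had 0 and 0. The ratio to mean density was 1.32 and 0.400 in WT and 1.12 and 0.623 in Prmt6KO. Both Prmt6KO values fell between the WT values, and the log2 difference of 0.20 had an exact permutation p of 1.00. Its direction turned without WT replicate 2 (-0.66) or without Prmt6KO replicate 1 (-0.22).

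Inside Itgam, WT had 5 and 2 peaks and Prmt6KO 18 and 9, against 3.53, 2.91, 17.6 and 9.35 from mean density. Just past the start, WT replicate 1 peaks lay at 128062908 to 128063151 (6 fragments) and 128064319 to 128064518 (7 fragments). The second shared 170 bp with a Prmt6KO replicate 2 peak of 7 fragments at 128064349 to 128064685. With a q of 0.145, that peak and another of 7 fragments near Cd14 had the lowest q of Prmt6KO at these genes. It was the sole position at the 6 genes where WT and Prmt6KO summits were both 7 fragments high.

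The granule genes had few WT peaks. At Mpo (chromosome 11, 87793784 to 87804412), WT replicate 1 had 0 peaks and WT replicate 2 had 1. Prmt6KO had 18 and 7, and Igf2bp2KO 0 and 0. Mean density gives 3.20 and 2.64 in WT and 16.0 and 8.47 in Prmt6KO, so that the ratios were 0 and 0.379 in WT and 1.13 and 0.826 in Prmt6KO. Counts near the list average in Prmt6KO thus stood against counts below it in WT. The groups did not overlap, with Prmt6KO above WT as at 27.4% of all genes. In WT replicate 1, 12.5% of protein-coding genes had no peak, and in WT replicate 2 32.3% had a lower ratio than Mpo. In Prmt6KO, 70.9% and 55.2% had a lower ratio. With the 0 entered as 0.5, the ratio was 1.99 higher in Prmt6KO on the log2 scale, and its exact permutation p was 0.333, again the lowest the design allows.

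The single WT peak in the Mpo window, of 6 fragments at 87785029 to 87785228, lay 8.56 kb from the gene, within Tspoap1 and the noncoding gene Gm34064, and shared 34 bp with a Prmt6KO replicate 1 peak of 5 fragments. Within the gene, Prmt6KO had 4 and 3 peaks and WT 0 and 0. Both Prmt6KO libraries had a peak at the same place there, at 87794452 to 87794808 with 2 fragments and at 87794475 to 87794674 with 5 fragments. The first summit was the lowest that its list holds.

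Elane (chromosome 10, 79886312 to 79888216) lies in a cluster with Prtn3, which encodes another granule protease, and Cfd, which encodes complement factor D. The window held 1 and 0 peaks in WT and 9 and 2 in Prmt6KO, while Igf2bp2KO had 0 and 0, and no peak was inside the gene. The ratios to mean density were 0.378 and 0 in WT and 0.680 and 0.285 in Prmt6KO. Elane was the one gene of the 6 with a ratio below 1 in all 4 libraries, and the local ratios were below 1 as well, at 0.604 and 0 in WT and 0.839 and 0.419 in Prmt6KO. The ranges of the genotypes overlapped, and with the 0 entered as 0.5 the log2 difference was 0.58 (exact permutation p = 0.667). Without Prmt6KO replicate 1 it was -0.044, a sign set by that entry. Within 5 kb of the gene WT had 0 and 0 peaks and Prmt6KO 3 and 0. The sole WT peak, of 5 fragments, was 9.87 kb from the gene.

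The transcription factor gene Cebpe (chromosome 14, 54710363 to 54712174) had 1 and 2 peaks in its window in WT and 16 and 5 in Prmt6KO, while Igf2bp2KO had 0 and 0. The ratios to mean density were 0.379 and 0.918 in WT and 1.21 and 0.715 in Prmt6KO, which overlapped between the genotypes. The log2 difference was 0.66 (exact permutation p = 0.667), and it turned to -0.71 with windows of 5 kb. No list had a peak in the gene, which is 1.81 kb long. The second overlap between Prmt6KO libraries at these genes lay 10.2 kb away in the amino acid transporter gene Slc7a8, at 54722380 to 54722600 and 54722285 to 54722610, with 4 fragments in each.

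**Figure D3:**
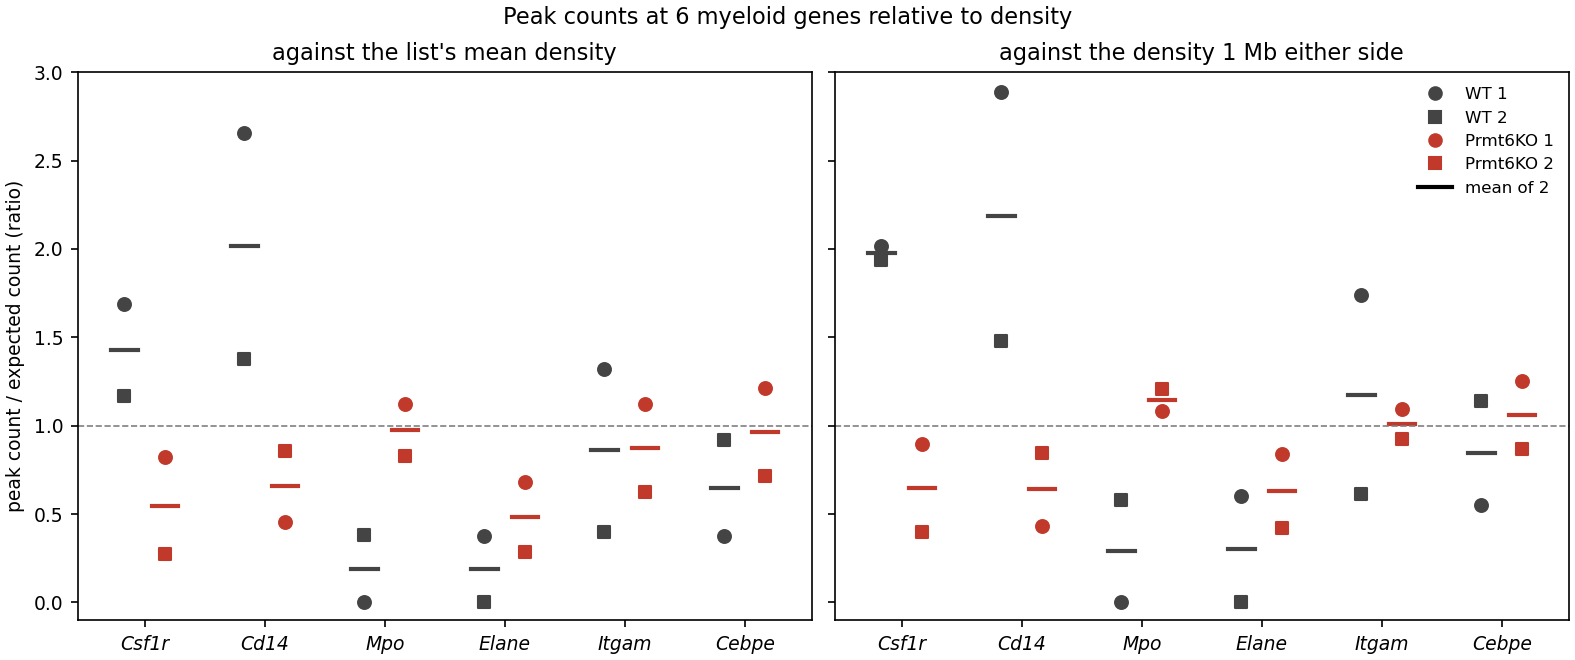
Peak count divided by the count expected from the list's mean density (left) and from the density 1 Mb either side (right), for each gene, with circles for replicate 1, squares for replicate 2 and bars for the mean of 2 libraries; the dashed line is a ratio of 1. WT points lie above the Prmt6KO points at Csf1r and Cd14 and below them at Mpo, and the genotypes overlap at Elane, Itgam and Cebpe against mean density.

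The 3 genes whose ratios did not overlap between WT and Prmt6KO were read against all genes. Both Prmt6KO ratios were above both WT ratios at 1 of the 6 genes, Mpo, and at 27.4% of the 21627 genes. Both were below at 2 of the 6, Csf1r and Cd14, and at 14.3% of all genes. Counts not scaled by density were higher in both Prmt6KO libraries than in both WT libraries at 4 of the 6, namely Itgam, Mpo, Elane and Cebpe, and at 85.3% of all genes. They were lower at 0 of the 6 and at 0.0647% of all genes. Counts above mean density were found at 3 of the 6 in WT replicate 1 (37.9% of all genes), 2 in WT replicate 2 (30.3%), 3 in Prmt6KO replicate 1 (50.1%) and 0 in Prmt6KO replicate 2 (32.1%). Windows with no peak were 1 of the 6 in WT replicate 1, Mpo (12.5% of all genes), and 1 in WT replicate 2, Elane (19.5%). No window was empty in Prmt6KO, where 0.509% and 1.91% of all genes were.

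**Figure D4:**
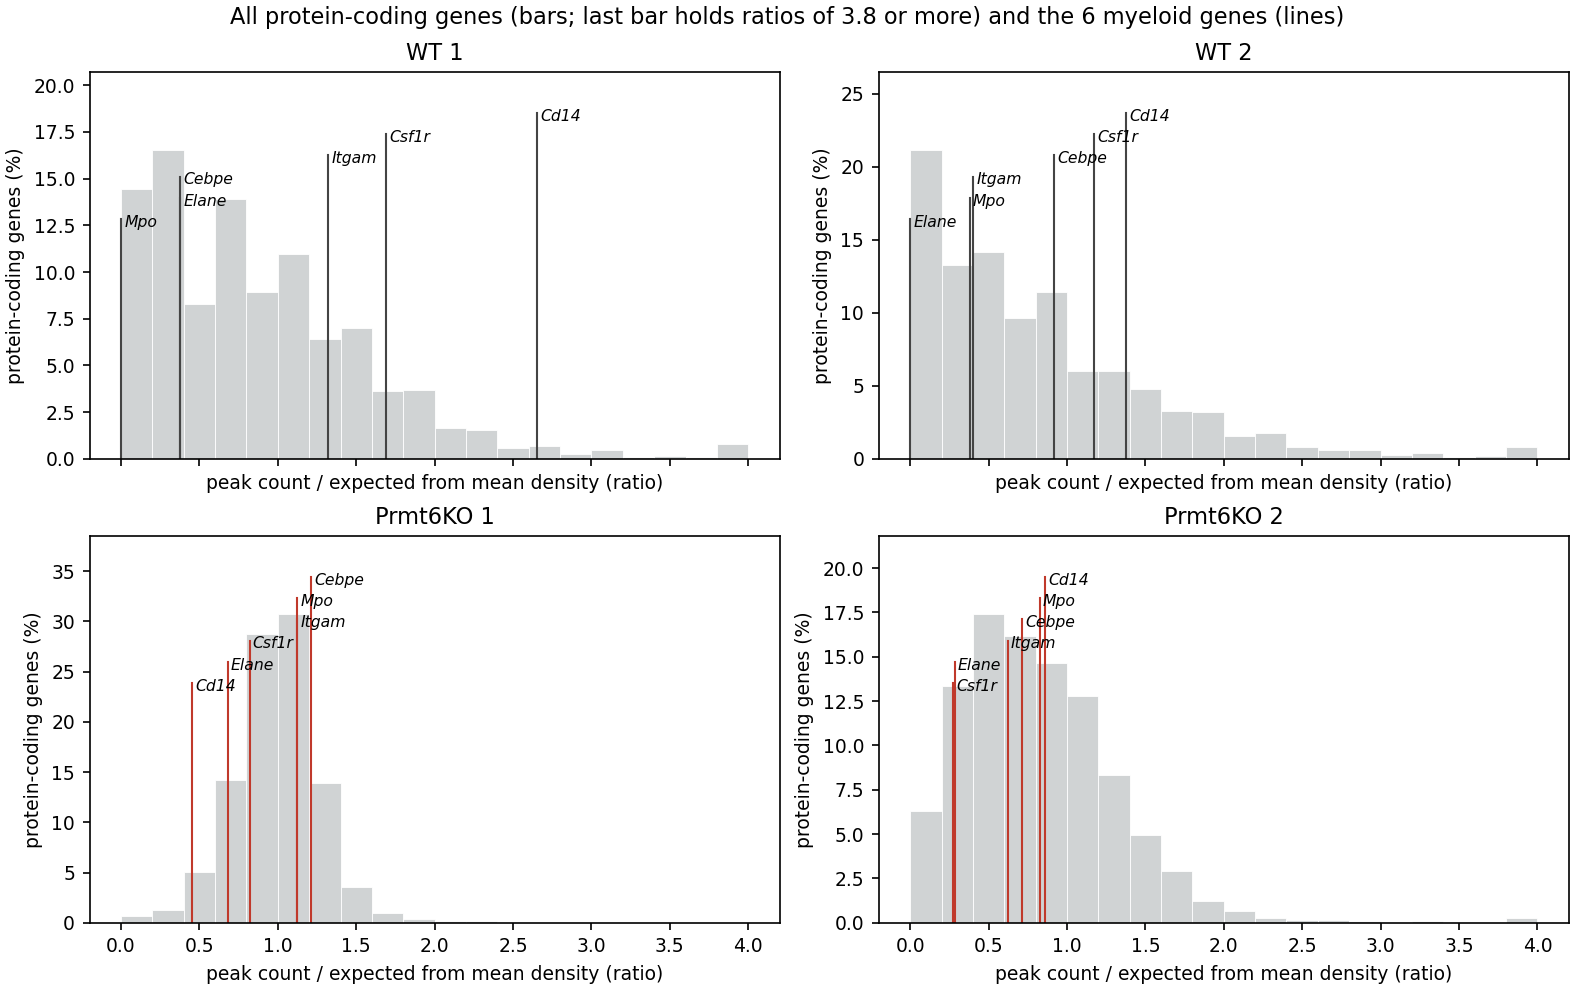
Percent of all protein-coding genes (grey bars) at each ratio of peak count to the count expected from mean density, in 4 libraries, with the 6 genes as vertical lines whose height carries no value. In WT replicate 1 Cd14 stands at 2.65 in the upper tail, and in Prmt6KO replicate 1 the same gene stands at 0.455 in the lower tail.

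Summed over the 6 windows, which span 337.5 kb, both Prmt6KO libraries had more peaks than both WT libraries. The counts were 24 and 12 in WT (18.0 ± 8.49, SD, n = 2) and 100 and 33 in Prmt6KO (66.5 ± 47.4, SD, n = 2). The mean of the log2 counts was 1.76 higher in Prmt6KO (exact permutation p = 0.333, the smallest possible). Mean density gives 21.3 and 17.6 in WT and 106.6 and 56.5 in Prmt6KO, so that the ratios were 1.13 and 0.682 in WT and 0.938 and 0.584 in Prmt6KO. These overlapped, with a log2 difference of -0.24 (exact permutation p = 0.667), and the sign turned without WT replicate 1 (0.12) or without Prmt6KO replicate 2 (0.098). With all 4 lists cut to 133960 peaks in order of p, the counts were 21 and 12 in WT and 15 and 12 in Prmt6KO. The log2 difference in counts turned to -0.24. The limit fell among peaks of equal height, at 5 fragments in WT replicate 1, 4 in Prmt6KO replicate 1 and 5 in Prmt6KO replicate 2. Height and background do not rank such tied peaks, so these counts depend on which of them were kept.

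Against the surrounding megabases the summed ratios were 1.45 and 0.986 in WT and 0.961 and 0.789 in Prmt6KO, which differ by -0.46 on the log2 scale (exact permutation p = 0.333, the smallest possible). With at least 5 fragments required in every list, a threshold chosen after seeing the data, 23 and 12 WT peaks and 2 and 16 Prmt6KO peaks remained, and the log2 difference in counts turned to -1.55. The 2 peaks came from Prmt6KO replicate 1, the library with the lowest background. The part of depth in these differences was not tested. Median summit height relative to background was 4.11 and 4.17 in WT and 4.07 and 3.31 in Prmt6KO (-0.17 on the log2 scale, exact permutation p = 0.333, the smallest possible). The whole lists had the same 4 medians.

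The Igf2bp2KO lists were silent at all 6 genes. They held 0 and 0 peaks in the windows, where mean density gives 0.126 and 0.160 peaks for the 6 windows together. They also held 0 in the 1 Mb on either side of each window, while the whole lists held 0.374 and 0.475 peaks per Mb. The difference from WT was -18.0 peaks, with the smallest exact permutation p possible, 0.333. Of all genes, 99.4% and 99.1% had no peak in replicates 1 and 2, and 0.633% and 0.897% had a count above mean density, as 0 of the 6 did. At least 1 peak in both libraries was found at 0.504% of genes, a replicated peak at 0.462% and a peak with a q of 0.05 or below at 0.194%, and each of these at 0 of the 6. The lowest summits those lists hold have 8 and 7 fragments. At 8 fragments or more WT had 1 and 0 peaks at these genes, and at 7 or more, where the fold enrichment in WT was at least 3, it had 7 and 1. Pileups came in steps of 0.277 and 0.302 in the Igf2bp2KO lists and in whole fragments in WT, and total reads are not given. Equal heights in fragments may therefore not be comparable between these lists. The part of the lowest listed summit in the difference from WT was not tested. Both Igf2bp2KO counts were below both WT counts at 4 of the 6 genes (Csf1r, Cd14, Itgam and Cebpe) and at 73.3% of all genes.

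Replicates did not share peaks at these genes in WT. Of the 24 peaks of WT replicate 1, 0 overlapped a peak of replicate 2, where 6.06% of the whole list did, and from replicate 2 the numbers were 0 of 12 and 7.34%. A replicated WT peak was found in the window of 15.5% of all genes. In Prmt6KO, 2 of 100 and 2 of 33 overlapped, at Mpo and Cebpe, where the whole lists gave 11.5% and 21.6%. A replicated Prmt6KO peak was found at 2 of the 6 genes and at 74.5% of all genes. At least 1 peak in both libraries, at any place in the window, was found at 4 of the 6 genes in WT (73.5% of all genes) and at 6 of 6 in Prmt6KO (98.1% of all genes).

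Between genotypes, 5 of the 12 WT replicate 2 peaks overlapped a Prmt6KO replicate 1 peak, or 41.7% against 19.1% of the whole list. They are 5 of the 100 Prmt6KO replicate 1 peaks. With Prmt6KO replicate 2 the share was below that of the list, at 1 of 12, or 8.33% against 15.1%. From WT replicate 1, 3 of 24 peaks overlapped Prmt6KO replicate 1, or 12.5% against 21.6%, and all 3 were in the Itgam window. The same number, 3 of 24, overlapped Prmt6KO replicate 2, where the list gave 15.3%. Across all 6 lists, 142 of the 169 peaks overlapped no peak of another library, 27 overlapped a peak of 1 other library, and 0 were shared by more than 2 libraries.

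The genes make up 28.9% of the windows. Of the WT peaks, 9 of 24 and 3 of 12 touched the genes, and of the Prmt6KO peaks 28 of 100 and 12 of 33 did. All such peaks were in Csf1r, Mpo and Itgam, the longer 3 of the genes.

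Other myeloid genes were described in the same way. A list of 43 receptors, granule proteins and regulators was used, in which Prtn3 shares a window with Elane and Itgax with Itgam. The median ratio to mean density was 0.799 and 0.437 in WT, 1.10 and 0.885 in Prmt6KO. Over all genes it was 0.759 and 0.633 in WT and 1.00 and 0.753 in Prmt6KO, and over the 6 genes 0.850 and 0.659, and 0.972 and 0.669. Both Prmt6KO ratios were above both WT ratios at 15 of the 43 genes (34.9%, against 27.4% of all genes) and below at 3 (6.98%, against 14.3%). A replicated WT peak was found at 7 of the 43 (16.3%, against 15.5%), and a replicated Prmt6KO peak at 31 (72.1%, against 74.5%).

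The ends of that list bracket the 6 genes. In WT the highest mean ratio was at Ccr2, a chemokine receptor gene of monocytes, with ratios of 3.35 and 3.66, and Prmt6KO had 0.737 and 1.01 there. Irf8, a transcription factor gene of monocyte and dendritic cell fate, Camp, a granule peptide gene, and Cyba, a subunit gene of the phagocyte oxidase, had 0 peaks in both WT libraries. In Prmt6KO the highest was Fcgr3, an Fc receptor gene, with 1.56 and 1.75, and the lowest Spi1, which encodes PU.1, with 0.431 and 0.0814. Cd14, at 2.65 and 1.38 in WT, had fewer peaks in each WT library (7 and 3) than Ccr2 (10 and 9) or Fcgr3 (15 and 6).

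Marker lists of separate cell types were read on the same scale, leaving the 6 genes out. The median over 8 granulocyte genes was 0.865 and 0 in WT and 1.13 and 1.04 in Prmt6KO, and over 5 monocyte and macrophage genes 0.708 and 0.429, and 1.19 and 0.855. The median over 6 B cell genes was 0.723 and 0.773 in WT and 1.04 and 0.491 in Prmt6KO. Over 8 genes that blood cells do not use, such as the albumin gene Alb, it was 0.599 and 0 in WT and 1.08 and 0.491 in Prmt6KO. Over 6 erythroid genes it was 0.374 and 0.873, and 0.907 and 0.663. Over 6 T cell genes it was 0.330 and 0.596, and 1.05 and 0.364, and over 4 megakaryocyte genes 0.461 and 0.873, and 1.03 and 0.417. The part of other cell types in the results was not tested. In the Igf2bp2KO lists, 1 of the 43 other myeloid genes had a peak, Fcgr3 with 2 in replicate 1 and 0 in replicate 2, and 0 genes of the marker lists had any.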

How the data were processed

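H3R2me2a ChIP-seq peak lists of 6 libraries (2 per genotype) were analysed. Peak calling with MACS2 2.1.0 after HISAT2 alignment to mm10 is taken from tools listed in the submitters' processing notes, which also list bcl2fastq 2.17, bedtools and Trim Galore but no settings. Each list was called on 1 library. Fold enrichment, a ratio, and the -log10 of p and q at each summit are the authors' own values, used within their list. Summit pileup, a coverage signal, is per the file headers; it was whole in WT and Prmt6KO and was divided by its step (0.277 and 0.302) in the deposited Igf2bp2KO lists to give fragments. Total reads are not given in the sources used here. Gene positions came from RefSeq (GRCm38.p6). Expected counts used the span from the first to the last listed base, 2.571 Gb. Overlap meant at least 1 bp. Each comparison used a two-sided exact permutation test over 4 libraries (Python 3.11.15, numpy 2.4.6), whose smallest p is 0.333. Code was tested on simulated data. Members, lists and tests were chosen with earlier results of these data known; named genes are the 6, coding genes in their windows, and the highest and lowest of the 43. Genes were not treated as replicates. Alternatives covered thresholds, window sizes, list length and left-out libraries.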

Additional observations from a re-analysis of the deposited data

How the results depend on the processing

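No test at these genes could pass a threshold of 0.05, so only directions can be compared. Values whose sign turned were as follows, on the log2 scale of Prmt6KO over WT. At a fold enrichment of at least 3, height gave 0.27, Cebpe -1.28 (1 and 0 peaks in WT, 0 and 0 in Prmt6KO) and Itgam -0.28 (2 and 0 against 1 and 2), where entering 0 as 0.5 sets the sign for Itgam and the size for Cebpe. With summits of 6 times the background or more, Mpo and Itgam both gave -1.83, a sign set by entering 0 as 0.5: WT had 0 peaks there and Prmt6KO replicate 1 had 2 over the 6 genes. With 5 kb either side Cebpe gave -0.71 (1 and 1 peaks against 3 and 2), and Elane also gave -0.71, but with 0 and 0 peaks against 3 and 0, so that the 0.5 sets its sign. With 50 kb the summed ratio to mean density was 0.042 and height 0.090. Lists of equal length, cut among tied peaks, gave -0.24 for the summed count, and 5 fragments or more, added after seeing the data, -1.55. Leaving out single libraries gave a range of -0.60 to 0.12 for the summed ratio, -0.66 to 1.06 for Itgam and -0.044 to 1.21 for Elane, whose lowest value also takes its sign from the 0.5. Cd14 stayed negative in every alternative that gave a value. So did Csf1r, except that its -0.28 at a fold of at least 3 is set by the 0.5, with 0 and 0 peaks in WT and 0 and 1 in Prmt6KO. Under the q threshold of 0.05 and under the one of 6 times background, the Igf2bp2KO difference was 0 peaks, because WT had none left. Replicated Prmt6KO peaks numbered 0 under these thresholds and under the fold threshold, 1 with 5 kb and 6 with 50 kb. With the replicate number as a block, the summed log2 difference in counts stayed 1.76, with an exact p of 0.5, the smallest 2 pairs allow. Deviations of same-numbered WT and Prmt6KO libraries correlated at 0.107 across genes, and nothing in the labels pairs them. At a q of 0.05 or below no log2 value exists, because all counts were 0.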
